A study of Homo sapiens with 12 samples.

Results

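Claudins and the proteins that join them in the tight junction were followed as 10 genes: CLDN1, CLDN3, CLDN4, CLDN6, CLDN7, CLDN9, CLDN12, CLDN23, OCLN and TJP1. They were chosen by gene name from the 29744 entries of the count table, which held all 10. The study asked how triple-negative breast cancer (TNBC) cells that depend on NOTCH signaling change when they become resistant to a γ-secretase inhibitor (GSI), and how SOX2 and NOTCH1 act on these cells. Stranded mRNA libraries from 4 groups, with 3 libraries each, were compared. MB157 iEV was the established TNBC cell line MB157 with a doxycycline-inducible empty vector, and MB157 iSOX2 was the same line with inducible SOX2. MB157R was derived from MB157 by growth for 25 weeks in 1 µM of the GSI LY3039478, which blocks the release of the NOTCH1 intracellular domain (N1-ICD). MB157R iEV carried the empty vector. MB157R iN1-ICD carried an inducible NOTCH1 without its extracellular domain, a construct that the study names N1-ICD. All 4 groups received 1 µg/ml of doxycycline for 72 h, so the controls share the drug and a vector with the induced cells. Whether MB157R cells were still in GSI when RNA was taken, and whether MB157R is 1 clone, is not given in the sources used here. The 3 libraries of a group are described as biological replicates, and the p-values set the difference between groups against the spread between such libraries. All MB157R libraries come from 1 derived line, so variation between separately derived resistant lines is not covered. How many separate transductions stand behind a group is not given either, and no group went without doxycycline.

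Tight junctions seal the space between neighbouring epithelial cells and separate the apical from the basolateral membrane. Claudins are membrane proteins that form the paired strands of the junction, and the mix of claudins sets how tight the barrier is and which ions pass. Occludin, encoded by OCLN, is a membrane protein of the same strands, and ZO-1, encoded by TJP1, is the cytoplasmic scaffold that ties the strands to actin. In breast cancer, low claudin RNA is used to define the claudin-low subtype, and repressors of the SNAIL and ZEB families are known to act on claudin genes through E-box sequences.

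Libraries held between 32773820 and 49055208 estimated counts, and a count of 3 in a library corresponded to between 0.0645 and 0.0904 CPM, the counts of a gene scaled to a library of 1000000. Levels are given as CPM scaled by the trimmed mean of M-values (TMM) over the 12 libraries, as mean ± SD with n = 3. SOX2 stood at 302 ± 23.1 CPM in MB157 iSOX2 and 6.98 ± 0.559 CPM in MB157 iEV, and NOTCH1 at 2348 ± 506 CPM in MB157R iN1-ICD and 94.9 ± 8.59 CPM in MB157R iEV. Both include RNA from the inducible vector. All 10 epithelial marker genes were at 1 CPM or more in every group. Their summed level was 3418 to 3512 CPM in MB157 iEV, 2302 to 2377 in MB157 iSOX2, 6446 to 6557 in MB157R iEV and 13102 to 15871 in MB157R iN1-ICD. The higher sum in MB157R iEV was not shared by all 10 markers. Against MB157 iEV, 5 were higher, led by KRT17 and KRT7, and 5 were lower, led by KRT14 and ESRP1. Of all genes tested there, 45.0% were called higher and 45.3% lower. The 7 endothelial markers summed to 97.4 to 106 CPM in MB157 iSOX2, of which PECAM1 made up 92.6, and to 25.5 to 27.8 CPM in MB157R iN1-ICD, led by TEK at 19.1. In MB157 iEV the sum was 6.03 to 7.29 CPM with CDH5 and TIE1 at 0 counts, and in MB157R iEV it was 2.67 to 3.36. Fibroblast markers summed to between 41.6 CPM in MB157 iEV and 169.7 CPM in MB157R iN1-ICD, led by PDGFRA in the MB157 groups and COL1A1 in the MB157R groups, with DCN at 0 counts in both MB157R groups. Immune markers summed to at most 39.5 CPM, nearly all from CD14 in MB157 iEV, with CD3E at 0 counts in every group. The part of these markers in the changes of the junction genes was not tested.

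The junction genes differed widely in abundance. CLDN4 and CLDN7 lay between 197 and 545 CPM. CLDN12, OCLN and TJP1 lay between 32.9 and 196 CPM, and CLDN23 between 5.06 and 10.4. CLDN9 and CLDN6 were scarce, with CLDN9 at 3.38 ± 0.568 CPM in MB157 iEV and CLDN6 never above 9 counts in a library. CLDN1 and CLDN3 differed most between the lines. CLDN1 reached at most 2.09 CPM in MB157 and at least 784 CPM in MB157R, and CLDN3 had at least 62.2 CPM in MB157 and at most 5 counts in an MB157R library.

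Claudin genes were compared with each other as CPM per kb of transcript, with the exonic length of the canonical transcript of each of 23 claudin genes. On that scale the sum over claudins was 532 ± 13.9 in MB157 iEV, 375 ± 4.19 in MB157 iSOX2, 595 ± 4.81 in MB157R iEV and 813 ± 13.9 in MB157R iN1-ICD, and no group overlapped another. In MB157 iEV, CLDN7 made up 37.8% ± 0.498 of the claudin RNA per length, CLDN4 30.8% ± 0.285, CLDN3 17.5% ± 1.13, CLDN8 7.48% ± 0.375 and CLDN12 3.12% ± 0.0808. In MB157R iEV the order was CLDN1 with 39.5% ± 1.75, CLDN4 with 28.5% ± 1.38, CLDN7 with 21.5% ± 0.196 and CLDN12 with 8.89% ± 0.0898. CLDN4 and CLDN7 were thus among the 3 most abundant claudins of both lines, with CLDN3 beside them in MB157 and CLDN1 in MB157R. In MB157R iN1-ICD, CLDN4 led with 37.6% ± 1.06, ahead of CLDN1 with 32.5% ± 1.09. MB157 iSOX2 kept the MB157 iEV order, with 40.7% ± 0.803 from CLDN7, 32.1% ± 0.267 from CLDN4 and 14.4% ± 1.13 from CLDN3. OCLN and TJP1 have longer transcripts, and per length they stood at 7.06 ± 0.257 and 6.15 ± 0.316 CPM per kb in MB157 iEV.

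**Figure D1:**
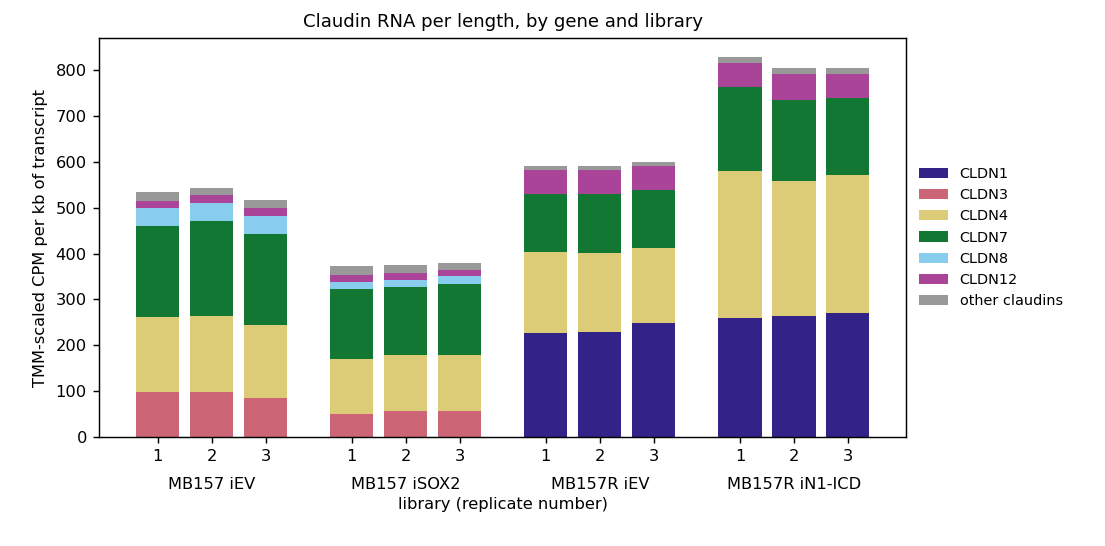
Claudin RNA as TMM-scaled CPM per kb of canonical transcript, stacked by gene, with 1 bar per library. The MB157R bars carry a CLDN1 block of 235 ± 12.3 (iEV) and 264 ± 5.02 (iN1-ICD) CPM per kb where the MB157 bars carry CLDN3 and CLDN8, and the iN1-ICD bars are the tallest.

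The comparison of MB157R iEV with MB157 iEV asked what differs between resistant and parental cells. CLDN1 was 644-fold higher in MB157R, TJP1 3.61-fold and CLDN12 3.05-fold. CLDN3 fell from 118 CPM to 0 counts. CLDN23, CLDN7 and OCLN were 1.71-, 1.64- and 1.35-fold lower, and CLDN4 did not pass the test. Of the 8 genes in the authors' filtered table, 3 were higher, 4 were lower and 1 was not called, where 90.2% of all 11435 genes tested were called, 45.0% higher and 45.3% lower. The 7 of 8 called is close to that background. The groups did not overlap for 7 of the 8, as for 90.5% of all genes. The median log2 fold change of the 8 was -0.22, and that of all genes tested was 0.

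CLDN1 encodes a barrier-forming claudin that skin and other tight epithelia need. It lies on chromosome 3 (190305707 to 190322446, minus strand; GENCODE v44 on GRCh38, as for all genes here). MB157 iEV libraries had 1.39, 1.15 and 1.11 CPM, from 46 to 49 counts each, and MB157R iEV libraries had 784, 788 and 859.7 CPM. Each MB157R iEV library was far above each MB157 iEV library. The log2 fold change was 9.33 (SE 0.07, edgeR adjusted p = 2.8e-17). Neighbours were matched to the count table by gene name, so a gene listed there under another name is left out. Of the 3 other protein-coding genes matched within 300 kb of the CLDN1 start site, TMEM207 had 0 counts in all 12 libraries. IL1RAP, an interleukin-1 receptor subunit, was 22.2-fold higher in MB157R iEV (log2 fold change 4.47, SE 0.07, edgeR adjusted p = 4.2e-15). CLDN16, a claudin known for magnesium handling in the kidney, is annotated head to head with CLDN1, from 190322541 on the plus strand. An exon of it overlaps a part of the CLDN1 promoter window. The start site of its canonical transcript is 65.7 kb from that of CLDN1. CLDN16 went from 2 counts in the 3 MB157 iEV libraries to 303 in the 3 MB157R iEV libraries.

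CLDN3 encodes a barrier-forming claudin of many simple epithelia and has a single exon on chromosome 7 (73768997 to 73770270, minus strand). The MB157 iEV libraries had 124, 125 and 106 CPM. In MB157R iEV all 3 libraries had 0 counts, so that CLDN3 was at least 5072-fold lower where the MB157R iEV libraries together are set at 3 counts. The call came from edgeR (adjusted p = 8.3e-14). CLDN3 and CLDN4 are alike in parts of their coding sequence, and their estimated counts were not whole in 2 of the 12 libraries, as happens where reads are divided between genes. In MB157R iEV, CLDN4 had 11685 to 12759 counts per library beside the 0 of CLDN3.

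The 250 bases before the CLDN3 start site are shown because this is the junction gene whose RNA went to 0. They are from RefSeq (GRCh38.p14), chr7:73770271-73770520 on the minus strand, and no annotated exon covers them. Capitals mark the GC box, GGGCGG or its reverse complement CCGCCC, which SP1-type factors can bind.

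CLDN3 promoter: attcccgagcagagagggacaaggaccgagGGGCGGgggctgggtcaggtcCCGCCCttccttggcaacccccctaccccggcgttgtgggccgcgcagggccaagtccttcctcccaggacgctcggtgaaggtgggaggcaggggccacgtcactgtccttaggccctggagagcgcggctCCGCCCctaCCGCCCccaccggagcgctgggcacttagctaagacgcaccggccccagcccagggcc

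The window holds 4 GC boxes, starting 220, 199, 67 and 58 bases before the start site, and 42.6% of 35116 RefSeq promoter windows hold at least 1. The share of windows with 4 or more GC boxes was not counted. It holds no E-box (CAGGTG or CACCTG), no SOX letters (ACAATG or CATTGT) and no RBPJ letters (TGGGAA or TTCCCA), which stand in 17.5%, 9.29% and 20.8% of the windows. A match or its absence describes the letters of this window only.

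CLDN4 lies on the opposite strand of chromosome 7 (73799542 to 73832690), and the start site of its canonical transcript (73830996) is 60.7 kb from that of CLDN3. Its protein is a barrier-forming claudin of glandular epithelium. It had 279, 282 and 272 CPM in MB157 iEV and 296, 293 and 275 CPM in MB157R iEV, and these values overlapped. The log2 fold change was -0.01 (SE 0.04, 95% interval -0.09 to 0.06, edgeR adjusted p = 0.79). In the fit of all 12 libraries it was 0.05 (edgeR adjusted p = 0.21), and without MB157R iEV replicate 3 it was 0.09 and passed (edgeR adjusted p = 0.047). Neighbours were again matched by gene name, so genes listed under another name in the count table are left out. The other protein-coding genes so matched, with a start site within 300 kb of that of CLDN3, were all detected in MB157R iEV. ABHD11, the nearest of them, was 1.49-fold lower (30.5 ± 1.14 against 21.4 ± 0.252 CPM), and MLXIPL, which encodes a glucose-responsive transcription factor, was 6.13-fold lower. BAZ1B, BCL7B and STX1A were 1.84-, 2.02- and 2.33-fold higher. ELN, the elastin gene, rose from 0.208 ± 0.0839 to 17.6 ± 0.187 CPM (78.1-fold). Of the 11 genes matched in that window, CLDN3 and CLDN4 included, 5 were higher, 4 were lower and 2 were not called, against the 90.2% of all genes called.

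**Figure D2:**
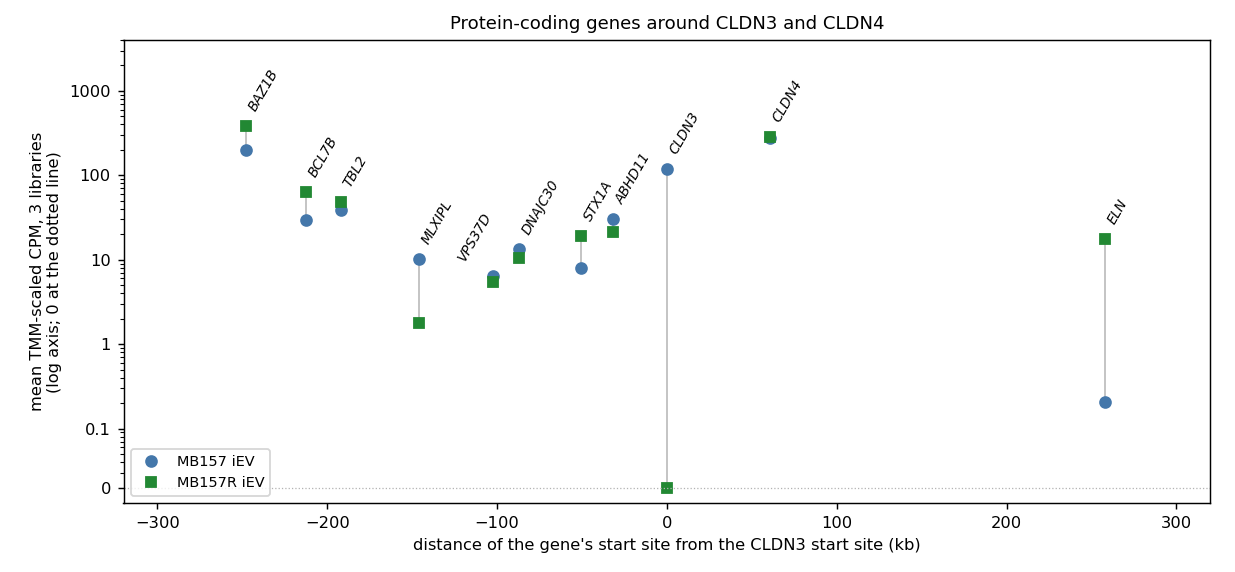
Mean TMM-scaled CPM (3 libraries, log axis, 0 at the dotted line) of the protein-coding genes around CLDN3, by distance of their start sites from that of CLDN3 in kb, in MB157 iEV (circles) and MB157R iEV (squares). Genes not matched by name in the count table have no point. CLDN3 drops from 118 CPM to 0 while CLDN4, at 60.7 kb, stays at 278 and 288 CPM.

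CLDN7, a claudin that is also found along the basolateral membrane, lies on chromosome 17 (7259903 to 7263983, minus strand). It had 307, 317 and 305 CPM in MB157 iEV and 197, 198 and 197 CPM in MB157R iEV, without overlap. The log2 fold change was -0.71 (SE 0.03, edgeR adjusted p = 1.3e-10). The promoter window that ends at its canonical start site holds 4 E-boxes, starting 174, 135, 20 and 9 bases before that site, and 43 of the 35116 windows (0.122%) hold 4 or more. This window was singled out for its E-boxes after the windows of the junction genes had been searched, so that share does not describe a window chosen beforehand. Whether a repressor acts on CLDN7 through these letters was not tested. The last 30 bases of this window, with the E-boxes nearest to the start site in capitals, are from RefSeq (GRCh38.p14, chr17:7262479-7262508, minus strand).

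CLDN7 promoter end: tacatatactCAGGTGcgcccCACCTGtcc

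A longer CLDN7 transcript covers this stretch, so the window is transcribed in part of the annotated transcripts. Among the promoter windows matched for 8 of the 10 genes (13 windows in all), E-boxes were also found in 2 windows of OCLN, with 1 at a different position in each, and in 1 window of TJP1. RBPJ letters were found once each in windows of OCLN, CLDN12 and CLDN7. None of the 13 held the SOX letters.

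CLDN12 is an atypical claudin that lacks the usual binding site for ZO proteins and takes part in calcium permeability. It lies on chromosome 7 (90383721 to 90513402, plus strand), where it overlaps GTPBP10 and CDK14 on the same strand. Its level was 58.4, 58.7 and 58.6 CPM in MB157 iEV and 188, 186 and 187 CPM in MB157R iEV. The 2 groups lay far apart beside a spread of under 1 CPM within each. The log2 fold change was 1.61 (SE 0.03, edgeR adjusted p = 4.5e-14).

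TJP1 (chromosome 15, 29699367 to 29968915, minus strand) had 41.6, 45.7 and 45.4 CPM in MB157 iEV and 170.4, 159 and 172 CPM in MB157R iEV. All MB157R iEV libraries were above all MB157 iEV libraries, with a log2 fold change of 1.85 (SE 0.04, edgeR adjusted p = 2.3e-13). OCLN (chromosome 5, 69492292 to 69558104, plus strand) went the other way, from 41.9, 44.0 and 45.0 CPM to 34.9, 32.9 and 33.9 CPM. Its log2 fold change was -0.43 (SE 0.05, edgeR adjusted p = 1.6e-06). OCLN has a near copy, the pseudogene OCLNP1, on the same chromosome, and reads from the shared part may have been split between them.

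CLDN23, on chromosome 8, is a little-studied claudin of differentiated epithelium. It had 10.4, 10.2 and 10.4 CPM in MB157 iEV and 6.54, 6.56 and 5.92 CPM in MB157R iEV, without overlap, and the log2 fold change was -0.77 (SE 0.09, edgeR adjusted p = 2.2e-06). CLDN6, best known from embryonic tissue, and CLDN9 lie side by side on chromosome 16. They were not in the filtered table. With genes kept by mean count only, CLDN9 was lower by a log2 fold change of -3.42 (edgeR adjusted p = 1.4e-07), from 391 counts in the 3 MB157 iEV libraries to 40 in the 3 MB157R iEV libraries. CLDN6 had 21 counts in MB157 iEV and 4 in MB157R iEV, with a log2 fold change of -2.41 when no filter was used (edgeR adjusted p = 0.024).

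**Figure D3:**
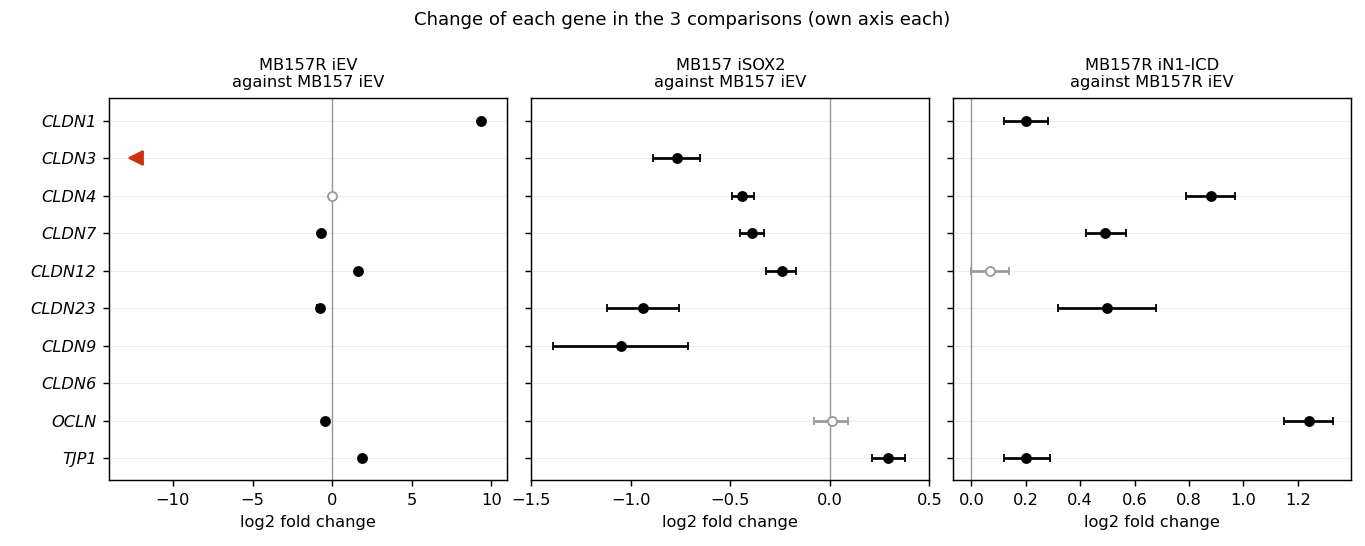
log2 fold change of each gene with its 95% interval in the 3 comparisons, each on its own axis. Filled points passed the edgeR test, open points did not, genes outside the filtered table have no point, and the red arrow is the bound for CLDN3 (at least 5072-fold lower). In MB157R iEV against MB157 iEV the changes of CLDN1 and CLDN3 exceed all others by several log2 units, in MB157 iSOX2 6 of 8 genes lie left of 0, and in MB157R iN1-ICD 6 of 7 lie right of 0 and passed.

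The comparison of MB157 iSOX2 with MB157 iEV asked what SOX2 changes in parental cells. It shares the MB157 iEV libraries with the comparison above. Most claudins were lower after SOX2 induction: CLDN9 2.07-fold, CLDN23 1.92-fold, CLDN3 1.71-fold, CLDN4 1.35-fold, CLDN7 1.31-fold and CLDN12 1.18-fold. TJP1 was 1.22-fold higher and OCLN did not pass the test. So 6 of the 8 genes tested were lower, 1 was higher and 1 was not called, where 66.4% of all 10904 genes were called, 33.9% lower and 32.5% higher. The groups did not overlap for 7 of the 8, as for 70.0% of all genes. The median log2 fold change of the 8 was -0.41 beside 0 for all genes tested. When libraries were scaled by their totals alone, 60.6% of all calls were higher instead of 48.9%, and the calls of the 8 genes were the same. Of the 10 epithelial markers 7 were lower as well and 1 was higher, KRT5 from 853 ± 30.9 to 206 ± 15.7 CPM among them. The part of that shift in the claudin values was not tested, and in bulk RNA fewer cells with a transcript and less of it per cell cannot be told apart.

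CLDN3 had 62.2, 72.4 and 72.5 CPM in MB157 iSOX2, all below the 106 to 125 CPM of MB157 iEV. Its log2 fold change was -0.77 (SE 0.06, edgeR adjusted p = 1.2e-08). CLDN4, its neighbour, had 203, 205 and 205 CPM, again below every MB157 iEV library. The log2 fold change of CLDN4 was -0.44 (SE 0.03, edgeR adjusted p = 6.3e-10). In the same window of chromosome 7, ABHD11 and BAZ1B were lower by 1.28- and 1.20-fold, and BCL7B, TBL2, DNAJC30 and VPS37D were higher by 1.10- to 1.28-fold.

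CLDN7 had 236, 229 and 240.4 CPM in MB157 iSOX2 and CLDN23 had 5.06, 5.14 and 5.88 CPM, both under all of their MB157 iEV values. Their log2 fold changes were -0.39 (SE 0.03, edgeR adjusted p = 6.1e-09) and -0.94 (SE 0.09, edgeR adjusted p = 1.3e-07). CLDN9 fell from 124 to 134 counts per library to 63 to 80 (log2 fold change -1.05, SE 0.17, edgeR adjusted p = 6.2e-05). CLDN12 had the smallest change that passed, -0.24 (SE 0.04, edgeR adjusted p = 4.3e-05), from 58.6 ± 0.188 to 49.3 ± 1.5 CPM.

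TJP1 was the gene that rose, with 53.1, 54.0 and 55.0 CPM against at most 45.7 in MB157 iEV (log2 fold change 0.29, SE 0.04, edgeR adjusted p = 2.1e-05). OCLN had 44.0, 43.9 and 43.3 CPM beside 41.9, 44.0 and 45.0, and the 2 groups overlapped. Its log2 fold change was 0.01 (95% interval -0.08 to 0.09, edgeR adjusted p = 0.91). CLDN1 was outside the filtered table, with 2.09, 1.65 and 1.46 CPM in MB157 iSOX2, each above the 3 MB157 iEV libraries. Its log2 fold change of 0.52 passed narrowly when genes were kept by mean count only (edgeR adjusted p = 0.049) and not without a filter (edgeR adjusted p = 0.07). CLDN6 had 20 counts in the 3 MB157 iSOX2 libraries and 21 in the 3 MB157 iEV libraries, and its change was not detectable at this depth.

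The comparison of MB157R iN1-ICD with MB157R iEV asked what restored NOTCH1 signaling changes in resistant cells, and it shares the MB157R iEV libraries with the comparison of the 2 lines. OCLN was 2.36-fold higher, CLDN4 1.84-fold, CLDN23 and CLDN7 1.41-fold, and CLDN1 and TJP1 1.15-fold. CLDN12 did not pass, and none of the 7 genes tested of the 10 followed here was lower. Of 7 genes tested, 6 were higher and 1 was not called, where 59.1% of all 11210 genes were called, 29.8% higher and 29.3% lower. The median log2 fold change of the 7 was 0.49 beside 0 for all genes tested. Among the epithelial markers 7 of 10 were higher and 2 lower, with KRT17 at 5642 ± 713 CPM in MB157R iN1-ICD and 492 ± 12.9 CPM in MB157R iEV. Their part in the junction gene values was not tested.

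OCLN had 82.3, 74.1 and 78.3 CPM in MB157R iN1-ICD, where the highest MB157R iEV library had 34.9. This was the largest fold among the 7 genes, with a log2 fold change of 1.24 (SE 0.05, edgeR adjusted p = 5.3e-09). CLDN4 had 545, 500.4 and 510.3 CPM against 275 to 296, a log2 fold change of 0.88 (SE 0.05, edgeR adjusted p = 7.4e-08). With CLDN4, ABHD11 and TBL2 on chromosome 7 were higher by 1.13- and 1.24-fold, while STX1A and DNAJC30 were lower by 1.15- and 1.16-fold.

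CLDN7 had 282, 274 and 259.8 CPM beside 197 to 198 in MB157R iEV (log2 fold change 0.49, SE 0.04, edgeR adjusted p = 1.6e-06). CLDN23 had 8.60, 9.0 and 8.68 CPM beside 5.92 to 6.56 (log2 fold change 0.50, SE 0.09, edgeR adjusted p = 0.00088). For both, all N1-ICD libraries were above all controls. CLDN1, already abundant in MB157R, had 894, 906 and 928 CPM beside 784 to 859.7, and TJP1 195, 178 and 191 beside 159 to 172. Their log2 fold changes were both 0.20 (edgeR adjusted p = 0.0021 and 0.0019).

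CLDN12 had 189, 196 and 189.7 CPM in MB157R iN1-ICD and 188, 186 and 187 in MB157R iEV. The groups did not overlap, as was true of 65.3% of all genes tested, but the log2 fold change of 0.07 did not pass (95% interval 0 to 0.14, edgeR adjusted p = 0.12). CLDN3 had 1, 3 and 5 counts in the 3 MB157R iN1-ICD libraries and 0 in each MB157R iEV library. In the fit of all 12 libraries this passed (edgeR adjusted p = 0.026), but the call was lost with limma-voom, without MB157R iEV replicate 1, 2 or 3 and without MB157R iN1-ICD replicate 2 or 3, with adjusted p from 0.051 to 0.089. Without a filter, the fit of the 6 libraries of this comparison did not call CLDN3 (log2 fold change 4.67, edgeR adjusted p = 0.063). The mean of 0.0722 CPM in MB157R iN1-ICD compares with 118 CPM in MB157 iEV. CLDN9 had 50 counts against 40 (log2 fold change 0.36 with genes kept by mean count only, edgeR adjusted p = 0.5) and CLDN6 5 against 4.

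The SOX2 effect in MB157 and the N1-ICD effect in MB157R share no library, and their difference was tested in 1 fit of all 12 libraries. This sets an effect in the parental line against another in its derivative. For 7 of 9 genes tested the SOX2 effect was lower than the N1-ICD effect, where 49.7% of 17103 genes were called, 24.7% as lower. CLDN4 had a difference of -1.29 on the log2 scale (SE 0.05, edgeR adjusted p = 4.4e-12), OCLN -1.21 (SE 0.07, edgeR adjusted p = 1.2e-10) and CLDN7 -0.86 (SE 0.05, edgeR adjusted p = 3.4e-10). CLDN23 and CLDN9 both had -1.41 (edgeR adjusted p = 5.8e-08 and 0.01), and CLDN12 -0.28 (edgeR adjusted p = 9.7e-05). For CLDN4, CLDN7 and CLDN23 the 2 effects had opposite signs and each passed its own test, while for OCLN the N1-ICD effect alone passed. CLDN3 was called as well, but its value rests on a group with 0 counts. TJP1 (0.12, SE 0.07, 95% interval -0.01 to 0.25, edgeR adjusted p = 0.16) and CLDN1 (0.35, SE 0.16, edgeR adjusted p = 0.073) were not called. CLDN1 passed without MB157 iEV replicate 1 (0.45, edgeR adjusted p = 0.045) or MB157 iSOX2 replicate 3 (0.46, edgeR adjusted p = 0.024), and with library totals alone CLDN1 (0.39, edgeR adjusted p = 0.043) and TJP1 (0.15, edgeR adjusted p = 0.035) passed.

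**Figure D4:**
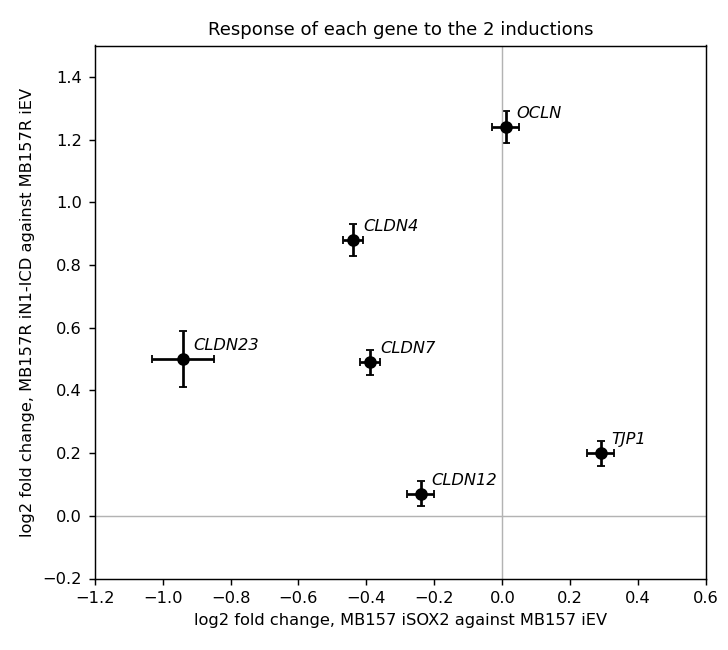
log2 fold change (± SE) after SOX2 induction in MB157 (horizontal axis) and after N1-ICD induction in MB157R (vertical axis) for the 6 genes tested in both. CLDN4, CLDN7 and CLDN23 lie in the upper left, lower with SOX2 and higher with N1-ICD, OCLN lies on the vertical line through 0 at 1.24, and TJP1 lies at 0.29 and 0.20.

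The levels in the 4 groups were then put in order, with each step between neighbours tested in the fit of all 12 libraries. Of the 17103 genes, that fit called 50.5% between MB157 iSOX2 and MB157 iEV, 53.0% between MB157R iN1-ICD and MB157R iEV, and 86.0%, 86.3%, 86.6% and 87.0% in the 4 pairs that set MB157R against MB157. CLDN4 ran from 204 ± 1.10 CPM in MB157 iSOX2 through MB157 iEV (278 ± 4.70) and MB157R iEV (288 ± 11.7), which did not differ beyond their spread (edgeR adjusted p = 0.21), to 519 ± 23.4 in MB157R iN1-ICD. OCLN ran from 33.9 ± 0.978 CPM in MB157R iEV through 43.7 ± 0.371 in MB157 iSOX2 and 43.7 ± 1.59 in MB157 iEV, which did not differ (edgeR adjusted p = 1), to 78.2 ± 4.11 in MB157R iN1-ICD. CLDN7 had 4 separate levels, 197 ± 0.459 CPM in MB157R iEV, 235 ± 5.63 in MB157 iSOX2, 272 ± 11 in MB157R iN1-ICD and 309.6 ± 6.86 in MB157 iEV. For OCLN and CLDN4, MB157R iN1-ICD was thus above the parental control, by 1.79- and 1.87-fold, and for CLDN7 it was 1.14-fold below it (log2 fold change -0.19, edgeR adjusted p = 9.3e-05).

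CLDN23 rose in the order MB157 iSOX2 (5.36 ± 0.451 CPM), MB157R iEV (6.34 ± 0.366), MB157R iN1-ICD (8.76 ± 0.214) and MB157 iEV (10.3 ± 0.103). The step between MB157 iSOX2 and MB157R iEV was the weakest (log2 difference 0.24, edgeR adjusted p = 0.02). It was lost with library totals alone (0.12, edgeR adjusted p = 0.23), a scaling that moves the median of all genes in that pair from -0.05 to -0.17, and without MB157 iSOX2 replicate 1 or 2 or MB157R iEV replicate 1 or 2 (0.20 to 0.22, adjusted p from 0.061 to 0.074). TJP1 rose from 44.3 ± 2.27 CPM in MB157 iEV through 54.0 ± 0.938 in MB157 iSOX2 and 167 ± 6.91 in MB157R iEV to 188 ± 9.13 in MB157R iN1-ICD, and each step passed. CLDN12 had 49.3 ± 1.5 CPM in MB157 iSOX2 and 58.6 ± 0.188 in MB157 iEV. The MB157R groups had 187 ± 0.773 (iEV) and 192 ± 3.83 (iN1-ICD), and the step between them did not pass (edgeR adjusted p = 0.38).

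CLDN1 rose from 1.21 ± 0.150 CPM in MB157 iEV and 1.73 ± 0.320 in MB157 iSOX2 to 811 ± 42.5 in MB157R iEV and 909 ± 17.3 in MB157R iN1-ICD. The lowest step (log2 difference 0.52, edgeR adjusted p = 0.0082) was lost with limma-voom (adjusted p = 0.12) and without MB157 iSOX2 replicate 1 (0.37, edgeR adjusted p = 0.063). CLDN3 ran the other way, from 0 counts in MB157R iEV to 69.0 ± 5.90 CPM in MB157 iSOX2 and 118 ± 10.4 in MB157 iEV. CLDN9 was lowest in the MB157R groups, 0.310 ± 0.12 and 0.399 ± 0.135 CPM (edgeR adjusted p = 0.43), and higher in MB157 iSOX2 at 1.62 ± 0.194 and MB157 iEV at 3.38 ± 0.568.

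For each gene, the 2 genes with the most similar profile were sought among 14272 genes that averaged 1 CPM or more, by the root mean square distance of log2 CPM centred over the 12 libraries. The nearest to CLDN23 was HES1, a direct NOTCH target, at a distance of 0.102. HES1 stood at 78.7 ± 1.78 CPM in MB157 iEV, 44.1 ± 0.723 in MB157 iSOX2, 46.4 ± 3.04 in MB157R iEV and 69.9 ± 1.76 in MB157R iN1-ICD. AVPI1 was next at 0.118. CLDN1 was nearest to CD302 (0.224) and CLMP (0.240), the latter an adhesion molecule of junctions, and both had 0 counts in all 6 MB157 libraries. CLDN3 was nearest to the mucin gene MUC5B (0.370), which went from 122 ± 7.81 CPM in MB157 iEV to 52.1 ± 3.34 in MB157 iSOX2 and to 0 counts in MB157R iEV. MAGEA3 was next (0.403), with 114 ± 0.949 CPM in MB157 iEV, 115 ± 1.45 in MB157 iSOX2 and 0.0158 ± 0.0274 in MB157R iEV. The nearest to CLDN4 were TAF1D (0.0701) and CCNB1IP1 (0.0723), to CLDN7 TCF19 (0.0496) and YOD1 (0.0652), to CLDN12 TTL (0.0486) and RIN2 (0.0488), to OCLN RCAN1 (0.0752) and FNIP2 (0.0840), and to TJP1 SLC31A2 (0.0751) and CLSPN (0.0763). These distances describe 12 libraries in 4 groups.

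The other claudins were mostly silent. Of 15 in the count table, CLDN8, CLDN10, CLDN11, CLDN15 and CLDN16 reached a mean of 1 CPM in any group. CLDN8, a barrier-forming claudin of the kidney and gut, resembled CLDN3. It stood at 83.1 ± 3.6 CPM in MB157 iEV and 33.5 ± 0.403 in MB157 iSOX2 (2.47-fold lower, edgeR adjusted p = 7.8e-14), and had 0 counts in MB157R iEV, at least 3586-fold lower. CLDN10 was higher in MB157 iSOX2 than in MB157 iEV, going from 4.22 ± 0.428 to 7.87 ± 0.118 CPM (1.88-fold, edgeR adjusted p = 1.1e-06), while MB157R iEV had 0 counts. CLDN22 had 128 counts in the 3 MB157 iSOX2 libraries and 0 in those of MB157 iEV and MB157R iEV, at least 37.9-fold above MB157 iEV. CLDN18 had 23 counts in MB157R iN1-ICD and 0 in the other 3 groups. CLDN16, the neighbour of CLDN1, rose with N1-ICD from 2.33 ± 0.481 to 7.95 ± 0.709 CPM (3.47-fold, edgeR adjusted p = 2.7e-06). CLDN15, a channel-forming claudin, was 1.56-fold lower in MB157R iEV and 1.32-fold higher in MB157 iSOX2, where its groups overlapped.

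Of 11 other membrane proteins of the junction tested in MB157R, 4 were higher, 6 were lower and 1 was not called, near the 90.2% of all genes called there. JAM2, a junctional adhesion molecule, was 5.37-fold and BVES 4.39-fold higher, while LSR, a receptor of tricellular junctions, was 2.39-fold and TMEM47 2.35-fold lower. After SOX2 induction 7 of 10 were higher and 2 were lower, where 32.5% of all genes were higher and 33.9% lower. Their median log2 fold change was 0.17 beside 0 for all genes tested. BVES and CRB3, an apical polarity protein, were 1.36- and 1.29-fold higher, and TMEM47 was 1.53-fold lower. After N1-ICD induction, with 29.8% of all genes higher and 29.3% lower, 5 of 11 were higher, with BVES 1.30-fold and MARVELD2, the tricellular relative of occludin, 1.16-fold, and 2 were lower, CXADR 1.17-fold and EPCAM 1.14-fold.

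Of the plaque and polarity proteins on the cytoplasmic side, 9 were higher and 13 lower of 23 tested in MB157R, beside 90.2% of all genes called. After SOX2, 11 were higher and 8 lower of 24, beside 66.4% called, and after N1-ICD 8 were higher and 3 lower of 22, beside 59.1% called. Of the ZO scaffolds, TJP1 and TJP3 moved in opposite directions. TJP3, which encodes ZO-3, stood at 88.2 ± 2.34 CPM in MB157 iEV and 0.255 ± 0.119 in MB157R iEV (edgeR adjusted p = 1.2e-15), against the rise of TJP1, and after SOX2 it was 1.69-fold lower where TJP1 was higher. AMOT, an angiomotin that binds polarity complexes, went from 71.3 ± 0.887 CPM to 6 counts in 3 libraries, and its relative AMOTL1 from 76.9 ± 2.97 to 266 ± 26.2 CPM. PARD6G, a PAR6 polarity protein, was 2.86-fold higher in MB157R and 1.60-fold lower after N1-ICD. PARD6A and CGNL1 led the rises after SOX2 (1.77- and 1.75-fold), and PARD3B and ARHGEF2 those after N1-ICD (2.14- and 1.79-fold).

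A list of 21 transcription factors was drawn up as linked to claudin genes, and whether each acts on these genes was not tested. The list holds SOX2 and NOTCH1, so each induced gene is itself counted among those higher after its induction. In MB157R 6 were higher and 12 were lower of 19 tested, beside 90.2% of all genes called. TP63, a factor of basal epithelium, rose from 6 counts in 3 libraries to 242 ± 18.8 CPM, and EHF, an epithelial ETS factor, was 20.5-fold higher. HEYL and TWIST2 had 0 counts in MB157R iEV, at least 757- and 592-fold lower. After SOX2 6 of 16 were higher, SOX2 included, and 8 lower, beside 66.4% called. HEY1 rose 10.3-fold and HEY2 fell 6.32-fold, and NOTCH1 itself was 2.79-fold lower. After N1-ICD 10 of 17 were higher, NOTCH1 included, and 6 lower, beside 59.1% called, with HEY1 9.04-fold higher, SOX2 3.19-fold lower and OVOL1 1.48-fold lower. No list of other junction genes or factors was tested as a set.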

How the data were processed

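Per the labels and the methods of the study, the authors aligned reads to hg38 with STAR and estimated counts per gene with Salmon, with a reverse strand setting. The annotation is not given in the sources used here. The deposited table of 12 libraries holds these estimated counts without normalization, and 88% of its values are whole within 1e-06. The authors also deposited 3 tables of log2 CPM, made with edgeR 3.42.4 (TMM) and limma 3.56.2 (voom) after removal of genes with low TPM or count and of uncharacterized genes, which fixed the genes tested here. These tables were recomputed from the counts to within 5e-14.

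Counts were rounded and tested with edgeR 4.0.16 in R 4.3.3 (quasi-likelihood test, TMM factors, Benjamini-Hochberg adjustment, threshold 0.05), with 6 libraries per comparison. A fit of all 12 libraries, on genes with a mean count of at least 5, gave the difference between inductions and the order of groups. The SE was worked back from the fitted log2 fold change and the F statistic of the quasi-likelihood test. Intervals at 95% are the fitted value ± 1.96 SE, with no allowance for the small number of libraries, and are approximate. Levels between genes were divided by canonical transcript length (GENCODE v44). All 10 junction genes were named. From each other list, called genes averaging 1 CPM or more could be named if they were among the top 2 by fold change in either direction, and for each junction gene the 2 most similar profiles. The neighbours of CLDN1 and CLDN3, CLDN11, CLDN18, CLDN22 and the markers at 0 or most abundant in a group fall outside this rule and were named after their values were seen. The CLDN7 promoter end was likewise chosen for print after its E-boxes were seen. The members and lists were chosen with earlier results of these data known. Other scalings, filters, DESeq2 1.42.0, limma-voom (limma 3.58.1), a replicate block and leaving out each library were tried. The edgeR steps were tested on simulated data. Counting floors cover counting error only. Figures were drawn with matplotlib 3.10.9. A gene of the other lists that the rule would name is not reported here.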

Additional observations from a re-analysis of the deposited data

How the results depend on the processing

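Of 1456 values of the junction genes under alternative settings, 1438 kept their direction and their side of the threshold, 13 lost a call, 5 gained a call and 0 reversed. In the 3 comparisons of 6 libraries, all 112, 112 and 98 alternative values kept the call. These counts leave out genes with no value in the main fit. Among such genes, CLDN1 after SOX2 passed or failed with the filter, as given with the results. The changed calls, all in the fit of 12 libraries and given with the results, concern CLDN1, CLDN3, CLDN4, CLDN23 and TJP1, and their cause was not tested. The number of genes called ranged from 10115 to 15083 between MB157R iEV and MB157 iEV, from 6670 to 9235 after SOX2 and from 5810 to 8451 after N1-ICD, the highest with fewer genes filtered out. Depth limits CLDN6, with at most 9 counts in a library, CLDN9 in MB157R and CLDN3 in MB157R iN1-ICD.

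Replicate numbers are shared between the groups. With the replicate number as a block, edgeR called 10247 genes between MB157R iEV and MB157 iEV, 7019 after SOX2, 6422 after N1-ICD and 8259 for the difference of the inductions, beside 10318, 7237, 6621 and 8506 without it. It called 7, 7, 6 and 7 of the junction genes, as many as without the block, and changed no call among them. Deviations of same-numbered libraries correlated between -0.12 and 0.03, so the numbers were not taken to pair the libraries.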
